A study of Mus musculus with 8 samples.

Results

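The genes described here are 10 members of the insulin and insulin-like growth factor (IGF) axis, the signalling route that lies upstream of phosphatidylinositol 3-kinase (PI3K). They were the ligands Igf1 and Igf2, the receptors Igf1r and Insr, the receptor substrates Irs1 and Irs2, and the binding proteins Igfbp2, Igfbp3, Igfbp4 and Igfbp5. They were found by gene symbol in the count table, which held all 10 among its 24419 symbols, and all 10 passed the filter on low counts that left 15875 genes for testing. RNA-seq was done on 8 libraries, 2 from each of 4 mouse models of endometrial cancer (EC) named TPM, TPMCa, TPMR1 and TPK. All 4 models began as uterus organoids of mice that express Cas9 and EGFP from the ubiquitous CAG promoter, and the edited organoids were transplanted into the left uterus of nude mice, which lack functional T cells. TPM organoids carried edits that include an sgRNA against Trp53, together with retroviral overexpression of Myc. TPMCa organoids carried the edits of TPM and, in addition, a Pik3ca mutant cDNA delivered by retrovirus, and TPMR1 organoids carried the edits of TPM and an sgRNA against Pik3r1. TPK organoids carried edits that again include the Trp53 sgRNA, without introduced Myc. The labels name EC tumor organoids as the source of the RNA, whereas the methods describe tumor tissue from transplanted mice. The 2 libraries of a model came from separate mice.

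IGF1 and IGF2 are secreted growth factors that activate the IGF1 receptor, a tyrosine kinase closely related to the insulin receptor, and the activated receptors phosphorylate the docking proteins IRS1 and IRS2, which recruit PI3K. IGF binding proteins are secreted proteins that hold IGFs in the extracellular space, lengthen their stay there and either limit or assist their access to the receptor. In the uterus the axis is known for relaying estrogen signals between stroma and epithelium, and in cells with active AKT the FOXO transcription factors, which drive expression of genes such as Irs2, are held out of the nucleus.

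Total counts per library lay between 15748396 and 26943611, so that 3 counts, the level taken as the floor, stood for 0.116 to 0.198 CPM, counts per 1000000 of the scaled library size. This floor covers counting error only. Markers of cell types set the libraries apart. The summed level of 8 epithelial markers was between 3502 and 6193 CPM in the TPM and TPK libraries and between 6.54 and 76.6 CPM in the TPMCa and TPMR1 libraries, with 2 of the 8 markers at or under the floor in each TPMR1 library, so that defining markers of an epithelial tumor were low or absent in these 4 libraries. The 8 squamous markers summed to between 4324 and 20200 CPM in TPM and TPK and to between 3.48 and 13.8 CPM in TPMCa and TPMR1. The first TPMR1 library stood apart from all others, with 5112 CPM for 7 steroidogenic markers against 454 CPM in the other TPMR1 library and 8.49 to 24.7 CPM elsewhere, and with the lowest fibroblast sum, 891 CPM against 2462 to 16728 CPM. In bulk RNA, fewer cells of one type and less RNA per cell cannot be told apart.

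Igfbp2 and Igfbp5, the members whose levels passed a test below, are neighbours in the mouse genome. In mm10, Igfbp2 lies on the forward strand at chr1:72824503-72852474 and Igfbp5 on the reverse strand at chr1:72857932-72874884, so that the genes converge and their ends are 5457 bp apart. The 250 bases before the RefSeq start of each gene (GRCm38.p6) are shown because both genes had their lowest levels in the same libraries. The first of 2 RefSeq starts is shown for Igfbp2, at chr1:72824230-72824479 on the forward strand, and the window of Igfbp5 is chr1:72874866-72875115 on the reverse strand. Capitals mark GC boxes, the letters GGGCGG searched on both strands.
Igfbp2: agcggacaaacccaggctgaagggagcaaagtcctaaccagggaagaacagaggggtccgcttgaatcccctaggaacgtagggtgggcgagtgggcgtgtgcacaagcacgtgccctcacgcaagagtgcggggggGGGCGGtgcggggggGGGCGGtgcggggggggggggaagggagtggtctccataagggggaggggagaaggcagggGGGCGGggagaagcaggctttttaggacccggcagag
Igfbp5: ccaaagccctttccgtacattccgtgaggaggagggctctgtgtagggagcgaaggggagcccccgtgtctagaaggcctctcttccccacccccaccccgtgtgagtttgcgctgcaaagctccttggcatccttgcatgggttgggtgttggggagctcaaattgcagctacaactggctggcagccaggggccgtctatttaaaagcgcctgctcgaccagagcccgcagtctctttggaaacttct
The Igfbp2 window shown held 3 GC boxes and the Igfbp5 window none, while 32.7% of 32851 RefSeq windows of this length held at least 1. Neither of the windows shown held a TATA box written as TATAAA (12.4% of all windows), an AP-1 motif written as TGACTCA (4.46%) or a FOXO core written as GTAAACA (3.17%), on either strand. The window of the second Igfbp2 start, chr1:72825137-72825386, which is not shown, held 1 AP-1 motif and none of the other motifs. A match, or the lack of one, describes the letters of these windows, and no relation of the letters to the levels was tested.

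The binding proteins gave the only differences between models that passed the test. IGFBP5 is a binding protein that also attaches to extracellular matrix. Igfbp5 stood at 187 and 209.8 CPM in the TPM libraries, at 1744 and 1558 CPM in TPMCa, at 162 and 1420.2 CPM in TPMR1, and at 44.7 and 30.5 CPM in TPK. Both TPK libraries were below the other 6, both TPMCa libraries were the highest, and the first TPMR1 library was lower than either TPM library. The means were 199 ± 15.8 CPM in TPM, 1651 ± 131 CPM in TPMCa, 791 ± 889.7 CPM in TPMR1 and 37.6 ± 10.1 CPM in TPK (SD, n = 2 each). Igfbp5 was 30.4-fold lower in TPK than in the mean of TPMCa and TPMR1, which in every test is a mean of log2 levels. The log2 fold change was -4.93 ± 0.96 (SE). Its adjusted p was 0.0206 in edgeR's quasi-likelihood test with Benjamini-Hochberg adjustment over all genes tested. This difference stayed between log2 values of -5.35 and -3.78 under 15 other settings. The call was lost without the first TPMCa library (adjusted p from edgeR 0.0614), without the second (0.0510), and without the first or the second TPK library (0.113 and 0.171).

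IGFBP2 carries an RGD motif through which it can bind integrins. Igfbp2 stood at 49.1 and 121 CPM in TPM, at 459 and 104 CPM in TPMCa, at 238 and 124 CPM in TPMR1, and at 22.5 and 3.76 CPM in TPK. Both TPK libraries were again below the other 6, although they differed 5.99-fold from each other. Igfbp2 was 17.1-fold lower in TPK than in the mean of TPMCa and TPMR1, with a log2 fold change of -4.10 ± 1.07 (SE) and an adjusted p of 0.0490 from edgeR. This p lay close to the threshold of 0.05, and the call was lost under 8 of 15 other settings, in which the adjusted p from edgeR was between 0.0556 and 0.219. These were the fit of only the models compared and the fits without either TPM library, either TPMCa library, the first TPMR1 library or either TPK library. The difference itself stayed between log2 values of -5.92 and -3.32 under all 15.

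**Figure D1:**
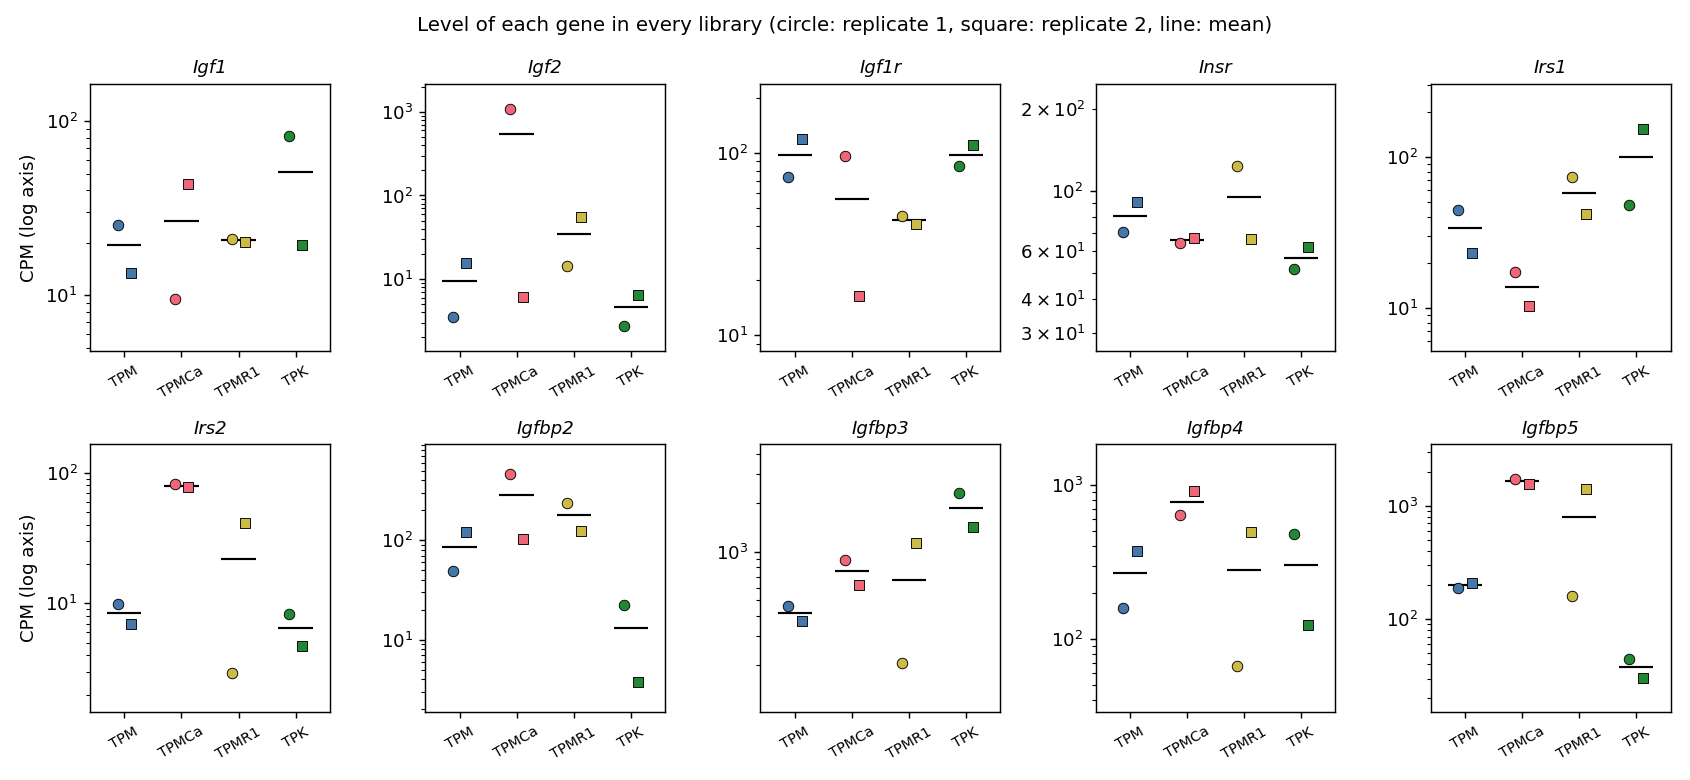
Level of each of the 10 genes in every library, in CPM on a log axis, with a panel for each gene. Circles are first replicates, squares second replicates and lines the mean of the 2 libraries of a model. The TPK libraries are the 2 lowest for Igfbp2, Igfbp5 and Insr and the 2 highest for Igfbp3, while the TPMCa libraries are the 2 highest for Irs2 and the 2 lowest for Irs1.

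Between TPK and the mean of TPMCa and TPMR1, 2 of the 10 genes were thus lower and none higher at an adjusted p under 0.05, against 4.06% of all genes tested that were lower and 10.3% that were higher, 14.4% in either direction. At an unadjusted p under 0.05 from edgeR, 5 of the 10 differed, against 32% of all genes. The groups did not overlap for 4 of the 10, near the 40.8% found over all genes. The median log2 fold change of the 10 genes was -0.56, beside 0.00 over all genes tested, and it was -0.13 without the second TPMR1 library, -1.16 without the first TPK library and -0.29 without the second. The fold changes of all 10 genes, with Irs1 and Igfbp3 on the other side of 0 from Igf2, Irs2, Igfbp2 and Igfbp5, are plotted with their errors.

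**Figure D2:**
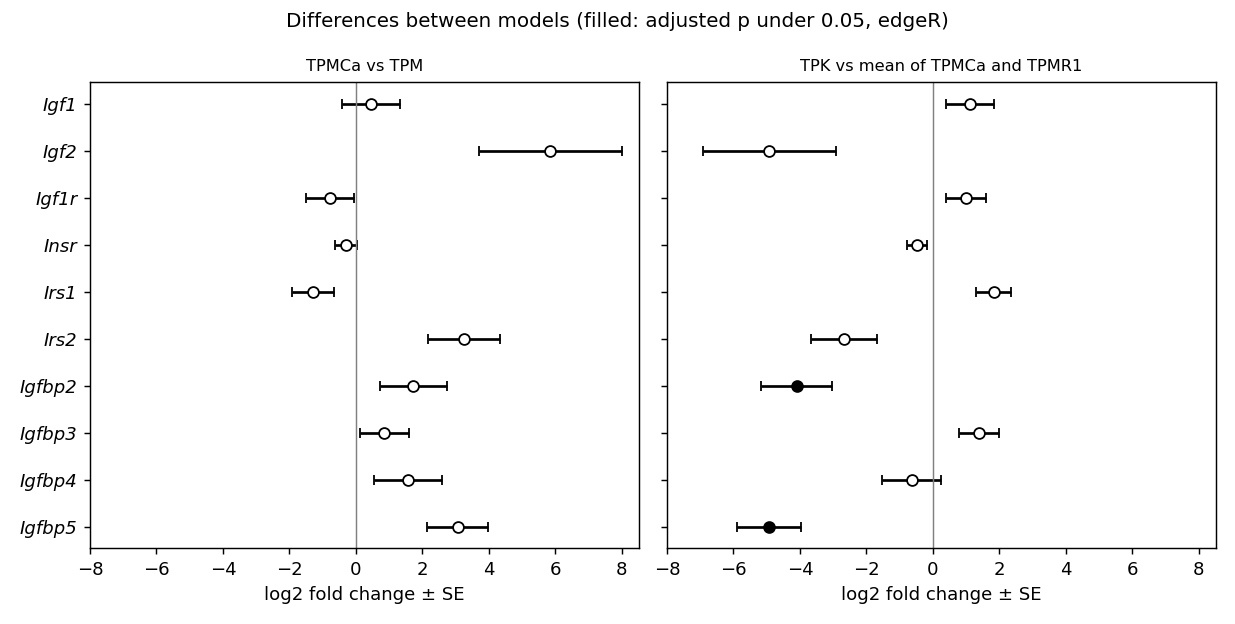
Log2 fold change with its SE from edgeR for the 10 genes, in TPMCa against TPM on the left and in TPK against the mean of TPMCa and TPMR1 on the right. Filled points mark an adjusted p under 0.05, which Igfbp2 (-4.10) and Igfbp5 (-4.93) reached in the right panel, and no gene in the left panel did.

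The summed markers of other cell types are given here beside Igfbp5, since some of them differed between the same groups. The 6 endothelial markers, among them Pecam1 and Cdh5, summed to 388 and 543 CPM in TPMCa and to 157 and 608 CPM in TPMR1. In TPM they summed to 117 and 96.8 CPM and in TPK to 153 and 51.7 CPM. The 3 libraries with the highest Igfbp5 were therefore the 3 with the highest endothelial sum, and none of the 6 endothelial genes was at or under the floor in any library. None of the 6 passed the test between TPK and the mean of TPMCa and TPMR1, where their median log2 fold change was -1.66. The 8 fibroblast markers, such as Col1a1 and Dcn, summed to 8561 and 16728 CPM in TPMCa and to 891 and 6627 CPM in TPMR1. Their sums were 6451 and 2463 CPM in TPM and 10039 and 2462 CPM in TPK. All 8 epithelial and all 8 squamous markers were higher in TPK than in the mean of TPMCa and TPMR1 at an adjusted p under 0.05 from edgeR. The part of these cell types in the levels of Igfbp2 and Igfbp5 was not tested.

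**Figure D3:**
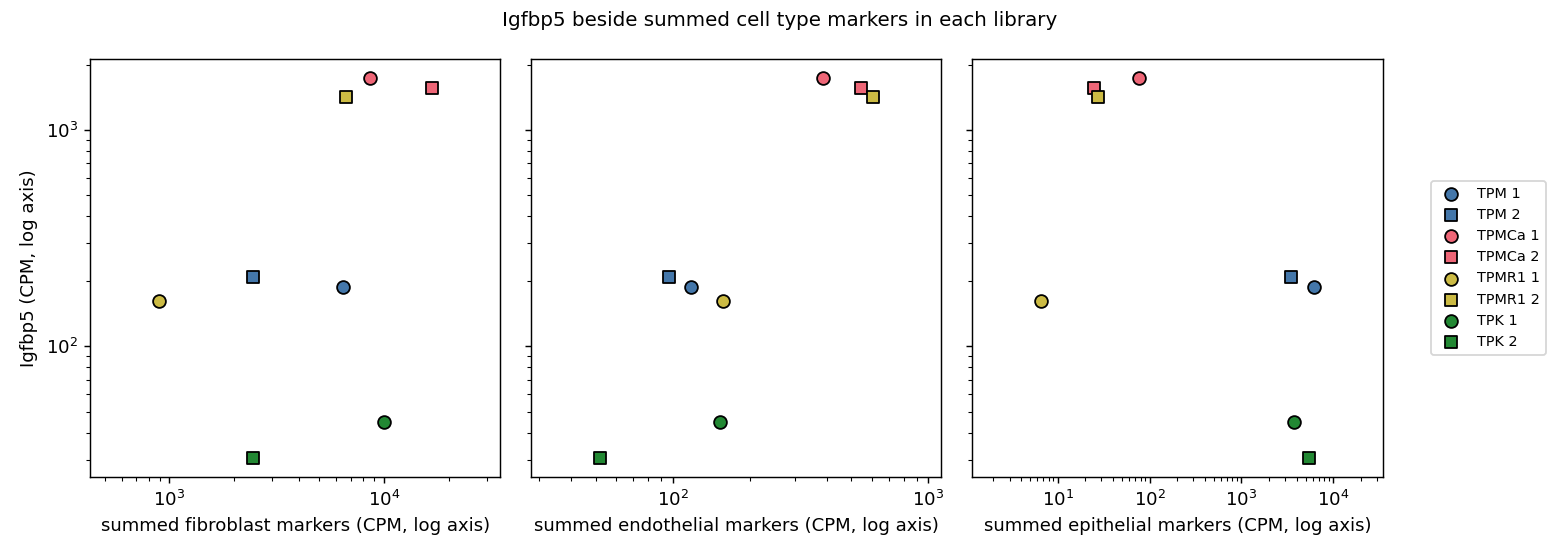
Igfbp5 in CPM against the summed level of 8 fibroblast, 6 endothelial and 8 epithelial markers, on log axes, with 1 point for each library. The 3 libraries with the most Igfbp5 have the 3 highest endothelial sums. The TPK libraries, lowest in Igfbp5, cover 2462 to 10039 CPM of fibroblast markers, and the TPMCa and TPMR1 libraries cover 891 to 16728 CPM.

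IGFBP3 is the main carrier of IGFs in blood and is also made locally in tissues. Igfbp3, at chr11:7206086-7213923, stood at 464 and 374 CPM in TPM, at 894 and 619 CPM in TPMCa, at 206 and 1131 CPM in TPMR1, and at 2293 and 1412 CPM in TPK. Both TPK libraries were above the other 6, in the opposite order to Igfbp2 and Igfbp5. Its log2 fold change in TPK was 2.15 ± 0.76 (SE) against TPM, with an adjusted p from edgeR of 0.678, and 1.38 ± 0.61 against the mean of TPMCa and TPMR1, with an adjusted p of 0.174, so that neither passed the test. Without the second TPMR1 library, Igfbp3 was called in the latter comparison together with Igfbp2 and Igfbp5.

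IGFBP4 is a binding protein that inhibits IGF action until it is cleaved by the protease PAPP-A. Igfbp4, at chr11:99041244-99054392, stood at 159 and 374 CPM in TPM, at 643 and 924 CPM in TPMCa, at 66.7 and 494 CPM in TPMR1, and at 479.8 and 122 CPM in TPK. The TPMCa libraries were the 2 highest, and the replicates of TPMR1 differed 7.40-fold and those of TPK 3.92-fold. Its log2 fold change was 1.56 ± 1.0 (SE) in TPMCa against TPM, with an adjusted p from edgeR of 0.402, and -0.64 ± 0.89 in TPK against the mean of TPMCa and TPMR1, with an adjusted p of 0.661. The TPMCa and TPM libraries did not overlap, whereas the TPK libraries lay within the range of TPMCa and TPMR1, and neither difference passed the test.

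Levels of different genes were compared per length, as RPKM, the CPM of a gene divided by its exon length in kilobases. Igfbp2, Igfbp3, Igfbp4 and Igfbp5 together reached 242 and 304 RPKM in TPM, 970.1 and 723 RPKM in TPMCa, 237 and 776 RPKM in TPMR1, and 861 and 486 RPKM in TPK. Igfbp3 made up 85.1 and 92.8% of that sum in TPK, against 27.4 to 29.4% in TPMCa, 27.7 and 46.5% in TPMR1 and 61.2 and 39.2% in TPM. Igfbp5 made up 0.864 and 1.04% in TPK, against 29.9 and 35.9% in TPMCa, 11.4 and 30.5% in TPMR1 and 12.9 and 11.5% in TPM. In the first TPMR1 library, Igfbp2 was the largest part with 54.5%. The mix of binding protein transcripts in TPK was thus mostly Igfbp3 in both libraries, a description for which no test was run.

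**Figure D4:**
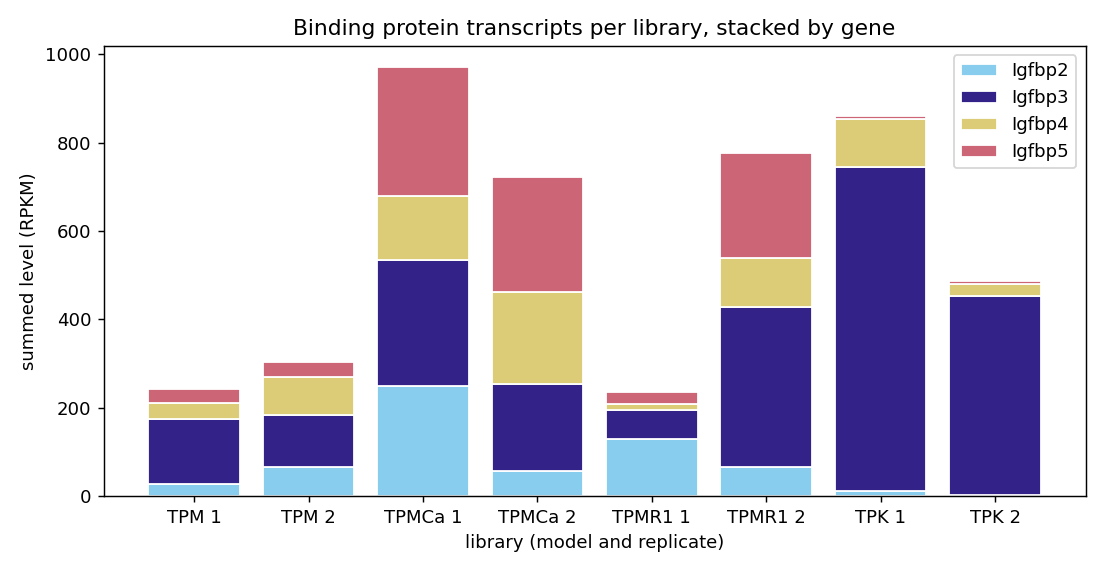
Summed level of Igfbp2, Igfbp3, Igfbp4 and Igfbp5 in each library, in RPKM, with the genes stacked. Igfbp3 takes up 85.1 and 92.8% of the TPK bars and at most 61.2% of any other, and Igfbp5 is the largest part of both TPMCa bars.

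No difference in a ligand passed the test. IGF1 is the growth hormone-dependent ligand that stromal cells of the uterus also make. Igf1, at chr10:87858265-87937042, stood at 25.3 and 13.4 CPM in TPM, at 9.56 and 43.7 CPM in TPMCa, at 21.2 and 20.1 CPM in TPMR1, and at 82.1 and 19.4 CPM in TPK. The groups overlapped in all 6 pairwise comparisons. Its log2 fold change in TPK against TPM was 1.39 ± 0.88 (SE), with an adjusted p from edgeR of 0.763, and it was -0.012 without the first TPK library. The highest Igf1 levels were in the first TPK and the second TPMCa library, which also had the highest sums of the 8 fibroblast markers (10039 and 16728 CPM) and of the 6 macrophage markers (2667 and 4211 CPM). Their sums of 6 adipocyte markers were the highest too (165 and 395 CPM). In the other libraries, fibroblast sums were between 891 and 8561 CPM, macrophage sums between 262 and 1571 CPM and adipocyte sums between 9.23 and 157 CPM. The part of these cell types in the Igf1 levels was not tested.

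IGF2 is a fetal growth factor encoded by an imprinted gene. Igf2, at chr7:142650766-142666816, stood at 3.55 and 15.6 CPM in TPM, at 1089.8 and 6.12 CPM in TPMCa, at 14.4 and 55.6 CPM in TPMR1, and at 2.74 and 6.39 CPM in TPK. One TPMCa library was thus 178-fold above the other, and the remaining 7 libraries lay between 2.74 and 55.6 CPM. Its log2 fold change in TPMCa against TPM was 5.84 ± 2.15 (SE), with an adjusted p from edgeR of 0.182, and it was -0.61 when the first TPMCa library was left out. In TPK against the mean of TPMCa and TPMR1 it was -4.92 ± 2.0, with an adjusted p of 0.147, and became a call only without the second TPMCa library and in DESeq2. H19, the imprinted noncoding gene next to Igf2, which was chosen after its values were seen, was also highest in the first TPMCa library, at 1999 CPM against 131 CPM in the second and 6.06 to 432 CPM in the other models. Exons of Igf2 share 98 bp with Igf2os on the opposite strand and 3596 bp with Gm49394 on the same strand. Whether the counting used strand is not given in the sources used here, so reads of these genes may not be separated.

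Insr had the narrowest range of the 10 genes, as a ratio of highest to lowest level. INSR binds insulin and, in its fetal isoform, IGF2 as well. Insr, at chr8:3122061-3279617, stood at 70.7 and 90.9 CPM in TPM, at 64.4 and 67.2 CPM in TPMCa, at 124 and 66.6 CPM in TPMR1, and at 51.7 and 62.2 CPM in TPK. The 2 TPK libraries were the lowest, by a small margin. The log2 fold change of TPK was -0.51 ± 0.34 (SE) against TPM and -0.47 ± 0.30 against the mean of TPMCa and TPMR1, with adjusted p from edgeR of 0.774 and 0.319. Insr and Irs1 were the only genes of the 10 whose replicates stayed within 4-fold in every model, while replicates of the other 8 were over 4-fold apart in at least 1 model, against 27.1% of all genes tested.

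IGF1R is the receptor that carries most growth signals of both IGFs. Igf1r, at chr7:67952827-68233668, stood at 74.2 and 120.1 CPM in TPM, at 95.8 and 16.4 CPM in TPMCa, at 45.2 and 40.5 CPM in TPMR1, and at 84.9 and 111 CPM in TPK. The second TPMCa library and both TPMR1 libraries were the 3 lowest. The log2 fold change was -1.18 ± 0.73 (SE) in TPMR1 against TPM and -0.79 ± 0.73 in TPMCa against TPM, with adjusted p from edgeR of 0.390 and 0.546. For the mean of TPMCa and TPMR1 against TPM it was -0.99 ± 0.61, with an adjusted p of 0.365, and Igf1r was called in that comparison and in TPK against the same mean only when the first TPMCa library was left out. Per length, Insr exceeded Igf1r 3.34-fold and 2.01-fold in the TPMR1 libraries and 5.01-fold in the second TPMCa library, whereas the ratio of Insr to Igf1r was 0.683 to 1.17 in the other 5 libraries.

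The receptor substrates stood at opposite ends of their ranges in TPMCa, although neither passed the test. IRS2 is the substrate that FOXO factors are known to induce, and that carries much of the insulin signal in liver. Irs2, at chr8:10984681-11008458, stood at 9.81 and 6.98 CPM in TPM, at 82.6 and 77.3 CPM in TPMCa, at 2.94 and 41.0 CPM in TPMR1, and at 8.29 and 4.75 CPM in TPK. Both TPMCa libraries were above the other 6, and the TPMR1 libraries, 13.9-fold apart, held the lowest and the third highest level. The log2 fold change in TPMCa against TPM was 3.25 ± 1.08 (SE), 9.52-fold, with an adjusted p from edgeR of 0.151. It became a call under 4 of 15 other settings. Among these were DESeq2 (adjusted p 0.0113) and a fit of only TPM and TPMCa (adjusted p from edgeR 0.0142). DESeq2 called 16.04% of all genes and that fit 8.35%, against 3.48% in the main fit. Without either TPMR1 library the log2 fold change stayed at 3.25. In TPK against the mean of TPMCa and TPMR1 it was -2.68 ± 0.99, with an adjusted p of 0.118, and it became a call only without the first TPMR1 library and in DESeq2. Irs2 shares 162 bp of exon with 9530052E02Rik on the opposite strand.

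IRS1 is the substrate best known for insulin and IGF signalling in muscle and fat. Irs1, at chr1:82233101-82291416, stood at 44.7 and 23.1 CPM in TPM, at 17.4 and 10.4 CPM in TPMCa, at 73.2 and 41.7 CPM in TPMR1, and at 47.9 and 153 CPM in TPK. The TPMCa libraries were the 2 lowest of all 8. The log2 fold change was -1.29 ± 0.64 (SE) in TPMCa against TPM, with an adjusted p from edgeR of 0.289, and 2.05 ± 0.66 in TPMR1 against TPMCa, with an adjusted p of 0.380. In TPK it was 1.83 ± 0.53 against the mean of TPMCa and TPMR1, with an adjusted p of 0.0636, and 1.57 ± 0.65 against TPM, with an adjusted p of 0.693. The former was called by DESeq2 (adjusted p 0.0137). Without the second TPK library both log2 fold changes were smaller, at 0.77 and 0.50. Per length, the ratio of Irs1 to Irs2 was 0.145 and 0.0926 in TPMCa, 3.15 and 2.29 in TPM, 17.2 and 0.705 in TPMR1, and 4.0 and 22.3 in TPK, so that Irs2 exceeded Irs1 in both TPMCa libraries and in the second TPMR1 library. Exons of Irs1 share 2822 bp with Gm9747 on the opposite strand.

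TPMCa and TPMR1, which carried the added mutant Pik3ca cDNA or Pik3r1 sgRNA, were also set against TPM. Of the 8 epithelial markers, 6 were lower in TPMCa and 8 in TPMR1 than in TPM, at an adjusted p under 0.05 from edgeR. Over all genes, 3.48% and 5.58% were called in either direction. The added edit and this difference in cell type markers cannot be told apart here. In TPMCa against TPM, none of the 10 genes passed an adjusted p under 0.05 in edgeR, against 3.48% of all genes tested, and 3 of the 10 (Igf2, Irs2 and Igfbp5) had an unadjusted p under 0.05, against 22.1%. DESeq2 called the same 3 genes at an adjusted p under 0.05, against 16.04% of all genes by DESeq2. The groups did not overlap for 6 of the 10, with Irs2, Igfbp3, Igfbp4 and Igfbp5 above and Insr and Irs1 below TPM, near the 61.3% of all genes. The median log2 fold change of the 10 was 1.21, beside -0.01 over all genes, and it was 0.45 without the first TPMCa library. In TPMR1 against TPM, none of the 10 passed in edgeR (5.58% of all genes), none had an unadjusted p under 0.05 (23.1%) and DESeq2 called none (18.1% of all genes by DESeq2). The direction of Irs2 and Igfbp5 there rested on which TPMR1 library was used. Without the first, edgeR called both higher than in TPM, at log2 values of 2.29 and 2.84, while 4.36% of all genes were called, and without the second they were -1.51 and -0.29 with neither called. Both comparisons share the TPM libraries.

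For the mean of TPMCa and TPMR1 against TPM, none of the 10 passed in edgeR, against 8.89% of all genes, 2 (Irs2 and Igfbp5) had an unadjusted p under 0.05, against 24.9%, and DESeq2 called 3, against 19.6% of all genes by DESeq2. Igfbp5 had a log2 fold change of 2.52 ± 0.83 (SE) there, with an adjusted p from edgeR of 0.121. In the overall test of the 4 models, none of the 10 passed in edgeR, against 7.32% of all genes, with the smallest adjusted p at 0.0544 for Igfbp5, and 5 had an unadjusted p under 0.05, against 27.9%. DESeq2 called 5 in that test, against 30.02% of all genes by DESeq2, and 5 in TPK against the mean of TPMCa and TPMR1, against 28.4%. In TPK against TPM and in TPMR1 against TPMCa, 0% of all genes passed, the 10 included, and DESeq2 called none of the 10 in either, against 1.64% and 4.96% of all genes. At an unadjusted p under 0.05 from edgeR, 4 of the 10 (Irs1, Igfbp2, Igfbp3 and Igfbp5) differed in TPK against TPM, beside 7.17% of all genes, and 5 did not overlap, Irs1 and Igfbp3 above and Insr, Igfbp2 and Igfbp5 below TPM, near the 47.9% of all genes. The log2 fold changes of Igfbp2 and Igfbp5 in TPK against TPM were -2.69 ± 1.05 (SE) and -2.40 ± 0.89, with adjusted p from edgeR of 0.689 and 0.683. In TPMR1 against TPMCa, Irs1 alone had an unadjusted p under 0.05 from edgeR, beside 11.8% of all genes. None of the 10 genes separated the 4 TPMCa and TPMR1 libraries from the 4 TPM and TPK libraries, whereas 10% of all genes lay above and 14.8% below without overlap.

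Other genes of the pathway were taken from a list of 59, of which 52 were tested. Between TPK and the mean of TPMCa and TPMR1, 8 were lower and 1 was higher, 9 of 52 tested against 14.4% of all genes. Their median log2 fold change was -0.39. In the mean of TPMCa and TPMR1 against TPM, 4 were higher and 1 lower (8.89% of all genes in either direction), in TPMR1 against TPM 3 were higher and none lower (5.58%), and in TPMCa against TPM none passed (3.48%). The 10 genes that passed in at least 1 test are shown by library, and 9 of them, all but Ptprf, had their lowest levels in TPK or TPM. Since they were chosen by tests between these models, this order partly follows from the choice.

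**Figure D5:**
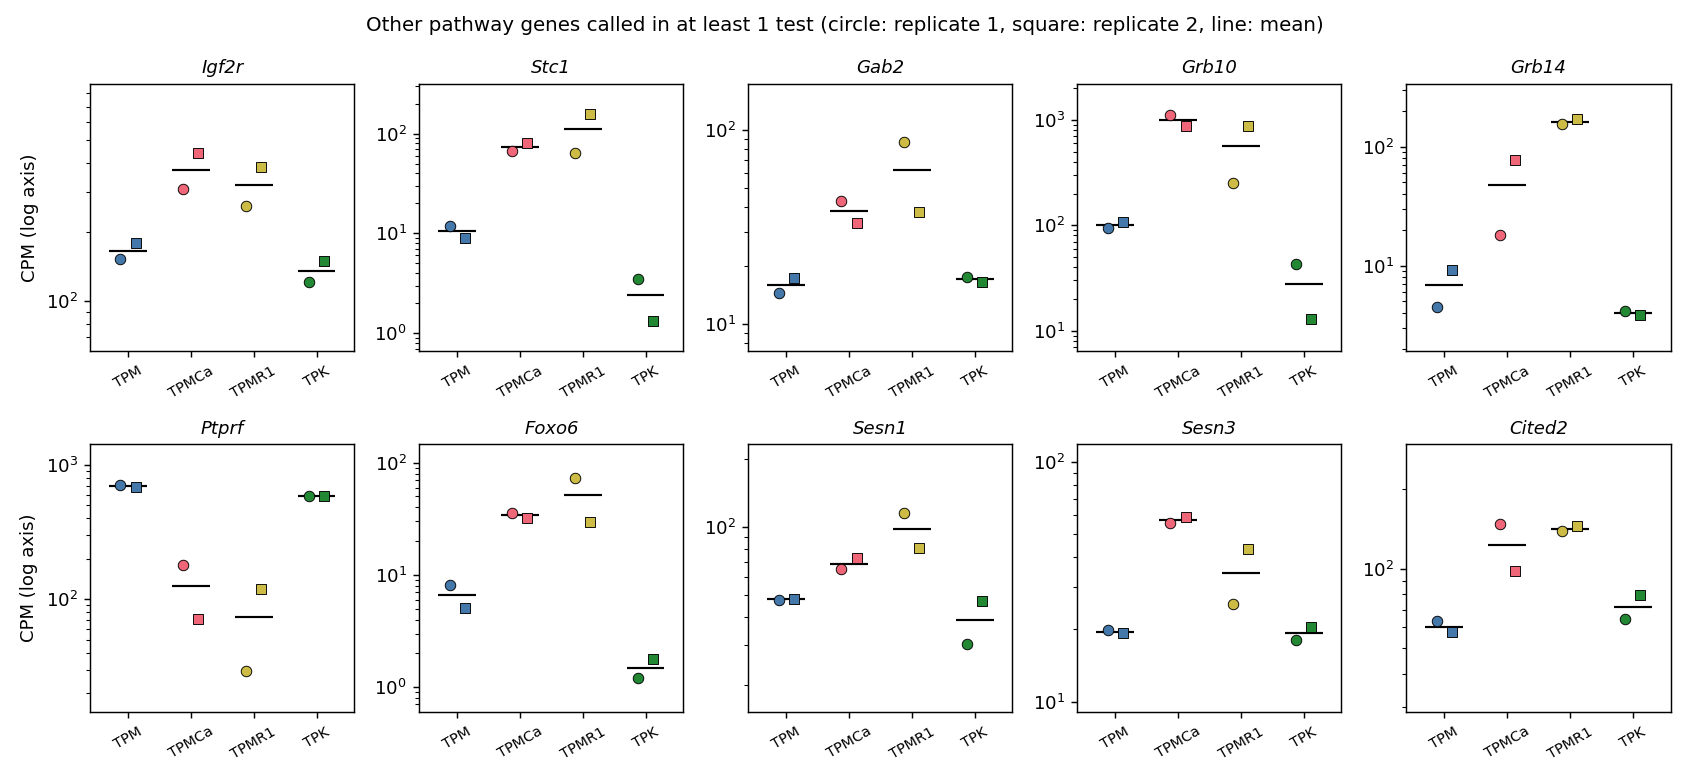
Level in every library of the 10 other pathway genes called in at least 1 test, in CPM on a log axis. Circles are first replicates, squares second replicates and lines means. All 4 TPMCa and TPMR1 libraries lie above all 4 TPM and TPK libraries for each gene except Ptprf, for which they lie below. The genes were chosen for passing tests between these models, so the separation partly follows from the choice. Over all genes tested, 10% lay above and 14.8% below in this way.

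Among ligands and receptors, Ins1 had 0 counts in all 8 libraries, which allows up to 0.116 to 0.198 CPM, and Ins2 was found only in the first TPMR1 library, at 1.08 CPM. Igf2r, the receptor that clears IGF2 by carrying it to lysosomes, stood at 152 and 179.6 CPM in TPM, at 307 and 441 CPM in TPMCa, at 259 and 384 CPM in TPMR1, and at 122 and 149 CPM in TPK. It was lower in TPK than in the mean of TPMCa and TPMR1, with a log2 fold change of -1.36 ± 0.29 (SE) and an adjusted p from edgeR of 0.0284. Of the 7 other binding proteins, proteases and protease inhibitors that were tested, 1 passed in that comparison, against 14.4% of all genes. This was Stc1, a stanniocalcin, a protein family that inhibits the PAPP-A proteases, at 3.49 and 1.32 CPM in TPK and 64.2 to 158 CPM in TPMCa and TPMR1. Its log2 fold change was -5.23 ± 0.65, with an adjusted p of 0.00476, and it was 3.12 ± 0.57 in the mean of TPMCa and TPMR1 against TPM, with an adjusted p of 0.0208. Igfbp1, known from decidua and liver, was at most 0.167 CPM in any library.

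Of 14 adaptors and receptor regulators tested, 3 were lower and 1 was higher in TPK than in the mean of TPMCa and TPMR1. Over all genes tested, 4.06% were lower and 10.3% higher. Grb10 and Grb14 encode adaptors that bind the activated insulin and IGF1 receptors and inhibit them. Grb10, an imprinted gene, stood at 94.8 and 107 CPM in TPM, at 1103 and 884 CPM in TPMCa, at 254 and 873 CPM in TPMR1, and at 43.2 and 12.8 CPM in TPK, and its log2 fold change was -4.74 ± 0.80 (SE) with an adjusted p from edgeR of 0.0129. Grb14 stood at 4.46 and 9.21 CPM in TPM, at 18.0 and 76.5 CPM in TPMCa, at 155 and 169 CPM in TPMR1, and at 4.17 and 3.82 CPM in TPK, with a log2 fold change of -4.45 ± 0.72 and an adjusted p of 0.0118. Both genes were at their lowest in TPK, like Igfbp2 and Igfbp5. Gab2, a docking protein that recruits PI3K to activated receptors, was lower by a log2 fold change of -1.51 ± 0.39 (adjusted p 0.0483). Ptprf encodes the receptor phosphatase LAR, which can dephosphorylate the insulin receptor, and it was the one gene that was higher in TPK, at 588 and 587 CPM against 29.1 to 179.9 CPM in TPMCa and TPMR1, with a log2 fold change of 2.61 ± 0.57 and an adjusted p of 0.0289.

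Of 18 genes from the AKT, FOXO and mTOR branch, Foxo6 alone passed between TPK and the mean of TPMCa and TPMR1, against 14.4% of all genes. Foxo6 stood at 1.2 and 1.78 CPM in TPK, 29.4 to 72.9 CPM in TPMCa and TPMR1 and 8.19 and 5.03 CPM in TPM, with a log2 fold change of -4.80 ± 0.58 (SE) and an adjusted p from edgeR of 0.00435. Of 11 known FOXO target genes tested, 2 were lower and none higher, against 4.06% lower and 10.3% higher over all genes. These were Sesn1 (log2 fold change -1.08 ± 0.28, adjusted p 0.0476) and Sesn3 (-1.21 ± 0.30, adjusted p 0.0410), which encode sestrins that restrain mTORC1. Cited2 was higher in the mean of TPMCa and TPMR1 than in TPM, with a log2 fold change of 1.13 ± 0.25 and an adjusted p of 0.0394. The median of the FOXO targets was -1.08 in TPK against the mean of TPMCa and TPMR1 and 1.03 in TPMCa against TPM, beside 0.00 and -0.01 over all genes. It was 0.60 in TPMR1 against TPM and 0.78 in the mean of TPMCa and TPMR1 against TPM. In TPK against TPM it was -0.23, and in TPMR1 against TPMCa -0.54. The medians over all genes in these comparisons were 0.01 to 0.03.

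For each of the 10 genes, the gene of most similar level across the 8 libraries was sought among 10410 other genes with a mean log2 CPM of at least 3, by Pearson's r of log2 CPM. The nearest were Hnrnpdl for Igfbp5 (r = 0.993), Eno2 for Irs2 (0.989), Arhgef12 for Irs1 (0.988), Dus1l for Insr (0.983), Imp4 for Igfbp2 (0.982) and Taf9 for Igf2 (0.981). For the other 4 the values were 0.968 for Igfbp3 with Procr, 0.963 for Igfbp4 with Chst12, 0.953 for Igf1r with Msln and 0.947 for Igf1 with Sap30l. The next genes for Igfbp5 were Slc9a5 (0.992) and Mastl (0.989). Among the 10 themselves, Irs2 and Igfbp5 (r = 0.868), Irs2 and Igfbp4 (0.840) and Igfbp2 and Igfbp5 (0.772) were the most alike. All points share their libraries, with 2 from each model, and the values are descriptions.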

How the data were processed

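PolyA RNA of 8 libraries was extracted with Trizol and sequenced by the authors as 150-bp paired-end reads, which were cleaned by the sequencing company and aligned to mm10 with STAR. The deposited counts used here are whole numbers of reads per gene symbol, and the counter, annotation and strand setting are not given in the sources used here. A table of counts normalized with DESeq2 by the authors was not used. Models and replicates were taken from the labels, and the column headings name TPM as TPMS.

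Counts were scaled by TMM, filtered with filterByExpr (15875 of 24419 genes) and fitted in R 4.3.3 with edgeR 4.0.16 (limma 3.58.1), in a quasi-likelihood model of all 8 libraries with a term for the model. Each gene had 7 tests, the overall test and 6 contrasts, and p was adjusted over all genes by the Benjamini-Hochberg method. With 2 libraries per model, each p-value set a difference between models against the spread between replicate libraries. That spread was estimated over all models together and drew on all genes tested. Log2 CPM used a prior count of 2, and RPKM used GENCODE M21 exon lengths, which all 10 members matched. Total counts were 15748396 to 26943611 per library. Fits were tested on simulated data in which 200 genes were changed in TPK. Against the mean of TPMCa and TPMR1, 22.4% of 4-fold, 80.6% of 16-fold and 89.4% of 64-fold changes were called, with 5 unchanged genes. A difference that did not pass may therefore still be present.

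The members and lists were chosen with earlier results of these data known. Genes named are the members, the other pathway genes called in any test, the 3 nearest in pattern, and markers or neighbours beside them. Alternatives were DESeq2 1.42.0, other scalings and filters, only the models compared, a replicate block and leaving out each library. Results on some engineered genes are not reported here.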

Additional observations from a re-analysis of the deposited data

How the results depend on the processing

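With 2 libraries per model, single libraries decided most calls, and the cause was not tested beyond what each setting leaves out. Where a model was left with 1 library, it was assumed to vary like the other models. Of the 10 genes, edgeR called 2 in TPK against the mean of TPMCa and TPMR1 and 0 in each of the other 6 tests. With DESeq2 the counts were 5 in the overall test (30.02% of all genes called), 3 in TPMCa against TPM (16.04%), 3 in the mean of TPMCa and TPMR1 against TPM (19.6%) and 5 in TPK against that mean (28.4%), so that calls rose over all genes as well. Without a filter on low counts the overall test called 1 gene (Igfbp5), against 7.48% of all genes. With only the models compared, 2 genes (Irs2 and Igfbp5) were called in TPMCa against TPM, against 8.35% of all genes. In TPK against the mean, such a fit called 1 (Igfbp5), against 9.39% of all genes. Leaving out 1 library could change which of the 10 genes were called in every test but TPK against TPM, where none was called. Calls over all genes rose or fell with the library left out too, so these changes cannot be read as particular to the 10 genes. In TPK against the mean, leaving out 1 library gave log2 fold changes of -5.92 to -3.32 for Igfbp2 and -5.35 to -3.78 for Igfbp5. In TPMCa against TPM, it gave 3.02 to 3.53 for Irs2. The other scalings, a filter of at least 1 CPM in 2 libraries and the replicate block gave the counts of the main fit in all 7 tests.

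The direction reversed only where 1 library was left out. The log2 fold change then ranged from -1.02 to 1.18 for Igf1 in TPMCa against TPM, from -0.29 to 1.85 in TPK against the mean and from -0.012 to 2.08 in TPK against TPM. For Igf2 it ranged from -0.61 to 7.26 in TPMCa against TPM and from -1.79 to 0.36 in TPK against TPM. In TPMR1 against TPM it ranged from -1.51 to 2.29 for Irs2 and from -0.29 to 2.84 for Igfbp5, and for Igfbp4 in TPK against the mean from -1.95 to 0.40. The reversals came without the first TPK library or second TPMCa library (Igf1), the first TPMCa or second TPM library (Igf2), the second TPMR1 library (Irs2, Igfbp4 and Igfbp5) and the second TPK library (Igfbp4). The other pathway genes called in TPK against the mean numbered 9, and calls among them, as over all genes, rose or fell with the library left out.

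With a replicate block the counts of calls were 2 in TPK against the mean (10.5% of all genes) and 0 in the other tests (0 to 6.54%). Same-numbered libraries did not deviate together over all genes tested (r between -0.07 and -0.01 over all pairs of models), and the main fit used no pairing. A shared effect on a part of the genes was not tested.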
